A study of Mus musculus with 21 samples.

Results

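The Sm core of the spliceosomal small nuclear ribonucleoproteins (snRNPs) is encoded by 7 genes, Snrpb, Snrpd1, Snrpd2, Snrpd3, Snrpe, Snrpf and Snrpg. They were taken from the mouse preimplantation transcriptome by name: a transcript of the merged long-read annotation was given to a gene when their exons overlapped on the same strand in GENCODE vM21 (build mm10). All 7 were found, among 14885 genes and unassigned loci, and they held 13 of 22612 merged transcripts. The level of a gene is the sum of the TPM of its transcripts in a library. TPM is the share of a library's transcripts, on a fixed scale, after division by transcript length. Levels of different genes can be set side by side only as far as the annotated transcript lengths hold. TPM keeps no read counts, so the number of reads behind a value is unknown, although the paper lists total sequences per library.

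The Sm proteins form a ring around the Sm site of the U1, U2, U4 and U5 small nuclear RNAs (snRNAs) and of their minor spliceosome counterparts. The ring is built in the cytoplasm from a D1/D2 pair, an E/F/G trimer and a D3/B pair, with the SMN complex and an arginine methylation complex in attendance, and the finished particle returns to the nucleus. In the mouse the maternal RNA store runs down and the embryonic genome becomes active around the 2-cell stage, so that splicing factors pass from maternal to embryonic transcripts in these days.

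The study covered 7 stages: sperm from the epididymis of DBA/2J males (the protocol text names the males DBA/2N), oocytes of superovulated C57BL/6J females 3 to 5 weeks old, and cultured embryos of the cross at the 1-cell, 2-cell, 4-cell, 8-cell and blastocyst stages. Oocytes were taken 20 h after hCG, 1-cell embryos at 24 to 26 h, 2-cell embryos at 46 to 48 h, 4-cell embryos at 54 to 58 h, 8-cell embryos at 68 to 70 h and blastocysts at 94 to 96 h. No group was treated or mutated. Each stage had 2 batches of pooled cells, each amplified as cDNA and sequenced as 1 short-read library (14 libraries), and both batches were mixed for 1 long-read library (7 libraries). A pool of embryos cannot show whether fewer cells carried a transcript or each cell carried less, and TPM gives a share of the RNA, not molecules per embryo.

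The 2-cell libraries stood apart from each other. Markers of the 2-cell stage (Zscan4c, Zscan4d, Zfp352, Tdpoz4 and Usp17lc) summed to 20.2 TPM in replicate 1 and to 332 TPM in replicate 2. The sum in replicate 1 was below the 32.9 to 36.8 TPM of the 4-cell libraries. The median standard deviation (SD) between replicates was 0.98 on the log2(TPM + 1) scale over all genes at the 2-cell stage, against 0.19 at the 4-cell stage. For the 7 Sm genes it was 1.38 and 0.18. The oocyte markers also differed there, at 107 and 1259 TPM. In their own stages the other marker sums were high, with 5152 to 16686 TPM of oocyte markers in oocytes, 17315 to 21185 TPM of sperm markers in sperm and 10200 to 37362 TPM of blastocyst markers in blastocysts. The blastocyst markers also summed to 305 to 956 TPM in sperm. Krt19 alone among them was higher there, at 135 and 222 TPM, than in blastocysts, at 4.77 and 23.6 TPM. Of 6 markers of cumulus cells none had a merged transcript, so cumulus cells could not be checked. For each step limma was run on log2(TPM + 1) values of the 13465 genes that had at least 1 TPM in at least 2 of the 12 oocyte and embryo libraries, and a gene was called at a Benjamini-Hochberg adjusted p under 0.05. Each gene had a single spread, shared by all the stages fitted, so the wide 2-cell spread entered every step. The labels do not say that the batches were separate matings, so the p-values measure the spread between pooled batches.

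Snrpb and Snrpd2 were low in oocytes and 1-cell embryos, at no more than 18.5 TPM, and rose at the 2-cell stage. The other Sm genes had at least 26.1 TPM in oocytes. The paper states that its long-read approach is limited for short transcripts and for those without poly(A). The short reads came from the same amplified cDNA, so these levels are of captured RNA only. Snrpb encodes SmB, which pairs with SmD3 and carries a proline-rich tail. It was at 0.769 and 3.11 TPM in the oocyte libraries, 3.52 and 2.45 TPM at the 1-cell stage and 65.8 and 61.6 TPM at the 2-cell stage. It then stood at 307 and 341 TPM in 4-cell embryos, 544 and 682 TPM in 8-cell embryos and 405 and 428 TPM in blastocysts. From the 1-cell stage on, neighbouring stages did not overlap, and the 8-cell libraries were highest.

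Snrpd2 encodes SmD2, which binds SmD1. It was at 4.58 and 3.48 TPM in oocytes, 18.5 and 3.09 TPM at the 1-cell stage, and 76.9 and 408 TPM at the 2-cell stage. It reached 604 and 722 TPM at the 4-cell stage and 798 and 708 TPM at the 8-cell stage, and blastocysts had 449 and 469.6 TPM. Oocytes and 1-cell embryos overlapped, both 2-cell libraries were above them, and the 4-cell and 8-cell libraries overlapped at the top.

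From the 1-cell to the 2-cell stage Snrpb rose by 4.03 (log2 scale, SE 0.67), or 16.4-fold in TPM + 1, with an adjusted p of 0.00092 by limma. Snrpd2 rose by 4.32 (SE 0.90), or 20.0-fold, with an adjusted p of 0.0036 by limma. These were 2 of 7 Sm genes called higher, and 0 were called lower. Over all genes tested 25.3% were called higher and 4.57% lower. The median change of the 7 Sm genes was -0.07, against 0.84 over all genes. When the libraries were quantile normalised the median of all genes moved to -0.11 and the share of calls that were higher fell from 84.7% to 45.6%, but Snrpb (2.99, adjusted p = 0.0062) and Snrpd2 (3.86, adjusted p = 0.0072) were still called by limma. In a limma fit of the 4 libraries of these stages alone no gene was called, with an adjusted p of 0.079 for Snrpb and 0.096 for Snrpd2, and without replicate 2 of the 1-cell stage Snrpd2 had an adjusted p of 0.054 (change 3.19).

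Snrpd3 encodes SmD3, the partner of SmB. Its level was 68.7 and 26.1 TPM in oocytes, 276 and 53.6 TPM in 1-cell embryos and 17.9 and 72.4 TPM in 2-cell embryos. It then stood at 295 and 445 TPM at the 4-cell stage, 403 and 379 TPM at the 8-cell stage and 181 and 53.0 TPM in blastocysts. The 4-cell and 8-cell libraries overlapped each other and lay above every other library, and oocytes, 1-cell embryos, 2-cell embryos and blastocysts overlapped. SmB and SmD3 are bound as a pair, but their transcripts followed different courses: in 1-cell embryos Snrpb did not pass 3.52 TPM while Snrpd3 had 53.6 and 276 TPM.

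Snrpd1 encodes SmD1, the partner of SmD2. It was at 143 and 83.9 TPM in oocytes, 112 and 76.5 TPM at the 1-cell stage and 57.3 and 155 TPM at the 2-cell stage. The 4-cell libraries had 291 and 243 TPM, the 8-cell libraries 268 and 159.5 TPM and the blastocyst libraries 155 and 51.6 TPM. Thus the 4-cell and 8-cell libraries overlapped and were highest, and the other embryo stages and the oocyte overlapped with a neighbour in the order.

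The E, F and G proteins, which bind one another before they join the ring, came from the most abundant Sm transcripts of the oocyte and embryo libraries, except for Snrpe in blastocyst replicate 2. Snrpe was at 498 and 159 TPM in oocytes, 1127 and 322 TPM at the 1-cell stage, 130.5 and 584 TPM at the 2-cell stage, 1289 and 1104 TPM at the 4-cell stage, 1479 and 873 TPM at the 8-cell stage and 1151 and 318 TPM in blastocysts. Snrpf was at 417 and 1944 TPM in oocytes, 1284 and 833 TPM at the 1-cell stage, 133 and 526 TPM at the 2-cell stage, 1289 and 993 TPM at the 4-cell stage, 1831 and 1987 TPM at the 8-cell stage and 954 and 2648 TPM in blastocysts. Snrpg was at 1223 and 537 TPM in oocytes, 786 and 559 TPM at the 1-cell stage, 473 and 849 TPM at the 2-cell stage, 1121 and 993 TPM at the 4-cell stage, 1313 and 1087 TPM at the 8-cell stage and 805 and 474 TPM in blastocysts. For Snrpe every neighbour in the order of stages overlapped except oocyte and sperm, and for Snrpf the 2-cell libraries were the lowest of the embryo stages on average and did not overlap with those of the 1-cell stage. Snrpg varied least over the embryo libraries, from 473 to 1313 TPM.

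None of the 5 genes with higher levels in oocytes was called between the 1-cell and 2-cell stages. Snrpf changed by -1.96 (SE 0.995, limma adjusted p = 0.15), Snrpd3 by -1.72 (SE 0.98, limma adjusted p = 0.20) and Snrpe by -1.12. The changes of Snrpg (-0.07) and Snrpd1 (0.03) turned sign when single libraries were left out. In all, 6 of the 7 Sm genes were lower in 2-cell replicate 1, the library with the lower 2-cell marker sum, than in replicate 2, and Snrpb was the exception. All genes leaned the same way: their median change from the 1-cell stage was 1.31 without 2-cell replicate 1 and 0.365 without replicate 2. The share of all genes lower in replicate 1 was not counted. The oocyte markers were lower in replicate 1 as well. Whether these differences in marker level have a part in these values was not tested.

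From the 2-cell to the 4-cell stage all 7 Sm genes were upward and had 4-cell libraries that did not overlap with the 2-cell libraries, a pattern that 27.2% of all genes showed. The largest changes were 3.28 for Snrpd3 (SE 0.98, limma adjusted p = 0.080) and 2.33 for Snrpb (SE 0.67, limma adjusted p = 0.073). No Sm gene was called by limma, 2 of the 7 had an unadjusted p under 0.05, and 1.06% of all genes were called higher and 1.58% lower. The median change was 2.09 for the Sm genes and -0.0018 for all genes. Without 2-cell replicate 2, Snrpd3 was called (4.26, limma adjusted p = 0.036). Under quantile normalisation, which raised the number of all genes called from 356 to 1528, limma called Snrpb (2.59, adjusted p = 0.032) and Snrpd3 (3.47, adjusted p = 0.033).

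**Figure D1:**
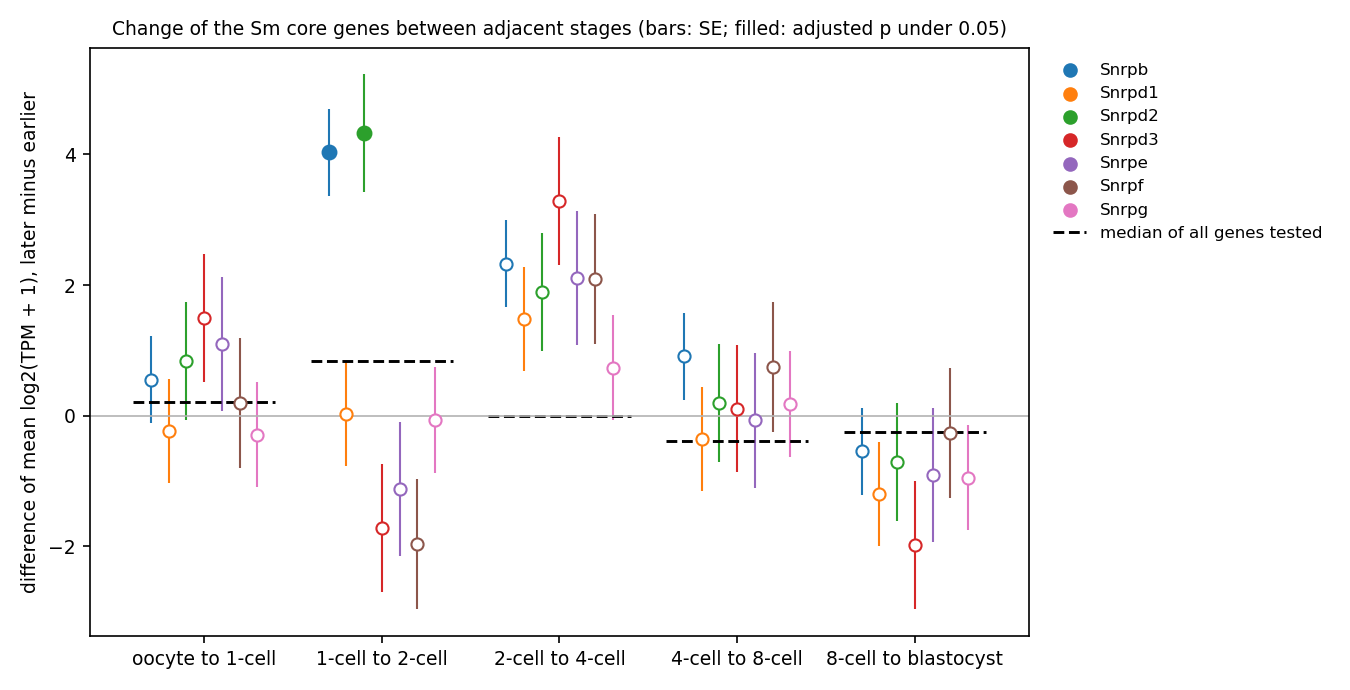
Difference of mean log2(TPM + 1), later minus earlier stage, of each Sm gene between consecutive stages from oocyte to blastocyst, with its SE as the error bar and the median of all genes tested as a dashed line. Filled points were called by limma at an adjusted p under 0.05: Snrpb (4.03) and Snrpd2 (4.32) from the 1-cell to the 2-cell stage.

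Set against the 1-cell stage, and so passing over the 2-cell libraries, the 4-cell libraries had 6.36 more Snrpb (log2 scale, SE 0.67, 82.3-fold, limma adjusted p = 3.9e-05) and 6.21 more Snrpd2 (SE 0.90, 74.1-fold, limma adjusted p = 0.00021). Both stayed called in each alternative that was run. The other 5 were upward and not called: Snrpd3 changed by 1.56 (limma adjusted p = 0.19), Snrpd1 by 1.51 (limma adjusted p = 0.13), Snrpe by 0.98, Snrpg by 0.67 and Snrpf by 0.13. Thus 2 of 7 were called higher and 0 lower, where 36.2% and 14.5% of all genes were. Groups did not overlap for 5 of 7, against 56.5% of all genes that were higher without overlap. The median was 1.51 for the Sm genes and 1.02 for all genes. Quantile normalisation moved the latter to 0.044 and the share of calls that were higher from 71.5% to 48.8%. With libraries weighted by the spread of their stage, limma also called Snrpd1 (adjusted p = 0.018) and Snrpd3 (adjusted p = 0.043), and with the 4 libraries alone it called Snrpd1 (adjusted p = 0.031).

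The remaining steps gave no call for the Sm genes. From oocyte to 1-cell embryo the largest change was 1.5 for Snrpd3 (limma adjusted p = 0.79), every gene overlapped, and none of the 7 had an unadjusted p under 0.05. Over all genes limma called 2.8% higher and 0.104% lower at this step. From the 4-cell to the 8-cell stage the largest changes were 0.91 for Snrpb and 0.75 for Snrpf. None of the 7 had an unadjusted p under 0.05, and limma called 0.832% of all genes higher and 2.92% lower. With libraries weighted by stage limma called 34.2% of all genes, and Snrpb had an adjusted p of 0.055. With the 4 libraries of these stages alone limma called 24.5%, and Snrpb had an adjusted p of 0.060. From the 8-cell stage to the blastocyst all 7 changes were downward, the largest being -1.98 for Snrpd3 (SE 0.98, limma adjusted p = 0.42). There the groups did not overlap for 5 of 7 Sm genes, all but Snrpe and Snrpf, against 31.0% of all genes that were lower without overlap. None of the 7 had an unadjusted p under 0.05, and limma called 0.921% of all genes higher and 1.07% lower. The Sm genes' median was -0.91 and that of all genes -0.24.

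Since the ring takes 1 copy of each protein, the levels of the 7 transcripts were set against each other within each library. These levels hang on the annotated lengths. On its own annotation the 4-cell stage had a Snrpf transcript of 255 bases at 4128 and 2528 TPM. Its Snrpg transcript had 764 bases and was at 375 and 382 TPM. The ratio of the highest to the lowest was 1590.2 and 625 in the oocyte libraries, 365 and 340.5 in 1-cell embryos and 26.4 and 13.8 in 2-cell embryos. It was 4.43 and 4.55 in 4-cell embryos, 6.82 and 12.5 in 8-cell embryos and 7.45 and 51.3 in blastocysts. In sperm it was 6.79 and 259.9. On the merged annotation, used for these values, the oocyte and 1-cell libraries lay above all others, and the 4-cell libraries were lowest. Snrpb was then the lowest gene in oocytes and 1-cell embryos, and Snrpd1 in each library from the 4-cell stage on. The ratio of 1590.2 rests on a Snrpb level of 0.769 TPM. On own-stage annotations, which lack some genes, Snrpb was lowest in both 4-cell libraries and in 8-cell replicate 1. The ratio was then 15.4 and 8.41 in 4-cell embryos and 7.47 and 8.03 in blastocysts. Snrpb and Snrpd2 together held 0.227% and 0.239% of the summed Sm TPM in oocytes, 0.61% and 0.299% in 1-cell embryos, 14.9% and 17.7% in 2-cell embryos, and 17.5% to 23.7% from the 4-cell stage on. The sum over the 7 genes ran from 955 TPM in 2-cell replicate 1 to 6635 TPM in 8-cell replicate 1.

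**Figure D2:**
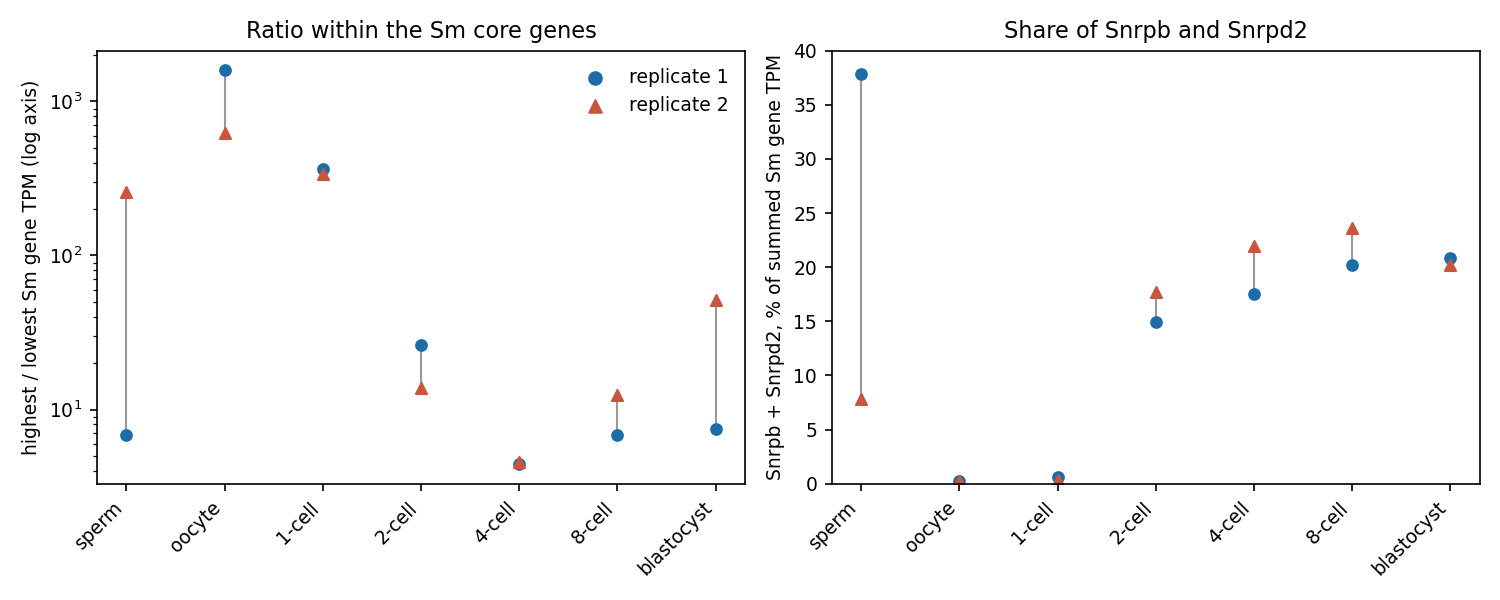
Balance of the 7 Sm transcripts in each short-read library: ratio of the highest to the lowest TPM (log axis), and the percent of the summed Sm TPM held by Snrpb and Snrpd2, with the replicates of a stage as a circle and a triangle. The ratio was 340.5 to 1590.2 in the oocyte and 1-cell libraries and 4.43 to 51.3 in those from the 2-cell stage on, while the sperm libraries were far apart.

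Over the 12 libraries without sperm, Snrpb and Snrpd2 followed each other most closely (Pearson r = 0.96 on log2(TPM + 1)), followed by Snrpd3 and Snrpe (r = 0.95). The protein pairs were less alike: r was 0.50 for Snrpb and Snrpd3 and 0.50 for Snrpd1 and Snrpd2. Within the E/F/G trimer r was 0.81 for Snrpe and Snrpg and 0.39 for Snrpe and Snrpf, and the value for Snrpf and Snrpg, 0.16, was the lowest of all pairs. The genes were measured in the same libraries, and stage means account for much of these values, so they are given as a description. Over the 14 libraries the genes most like Snrpd3, of 14390 compared, included Npm1 (r = 0.98), which encodes nucleophosmin of the nucleolus, Sar1b (r = 0.95), Hnrnpc (r = 0.95) and Phf5a (r = 0.95), a subunit of the U2-associated SF3b complex. For the mean of the 7 Sm genes they were Hmgb1, Cdc6, Mcm3, Acadm and Sox15, with r from 0.96 to 0.97.

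The 13 merged transcripts were 1 each for Snrpb, Snrpd2 and Snrpd3, 2 each for Snrpf and Snrpg and 3 each for Snrpe and Snrpd1. The single Snrpb transcript has 7 exons and 1142 bases (chr2:130171635-130179384, minus strand), that of Snrpd2 has 3 exons and 576 bases (chr7:19149762-19152738, plus strand), and that of Snrpd3 has 4 exons and 692 bases (chr10:75517990-75535476, plus strand). Each matched an annotated transcript intron for intron. The long-read annotations of oocytes and 1-cell embryos held no transcript of Snrpb, where its short-read level was at most 3.52 TPM. Those of oocytes, 4-cell embryos and blastocysts held none of Snrpd2, although the short reads of 4-cell embryos gave it 604 and 722 TPM. Snrpg was missing from the 1-cell annotation and Snrpf from that of blastocysts.

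Snrpe had 2 isoforms that leave out internal coding sequence. Its annotated transcript has 5 exons and 546 bases (chr1:133603872-133610335, minus strand). A 4-exon isoform of 454 bases leaves out the last 27 bases of exon 1 and all 27 bases of exon 2, and a 3-exon isoform of 372 bases also leaves out exon 3, of 63 bases. The 54 and 117 bases are all coding in GENCODE vM21, and both numbers are multiples of 3, or 18 and 39 codons. The introns that join exon 1 to exon 3 (chr1:133608960-133610190) and exon 1 to exon 4 (chr1:133606580-133610190) are not in GENCODE vM21. The sequences are shown because they hold what both new isoforms lose and a junction by which the 3-exon isoform is told apart from the annotated one. They are from GENCODE vM21 (GRCm38, mm10), 5′ to 3′ on the minus strand. In the first line, spanning chr1:133609718-133610190 with the intron removed, lower case marks the end of exon 1 and capitals mark exon 2. In each junction line 15 bases before the junction are in lower case and the 15 bases after it in capitals.
Left out by both new isoforms: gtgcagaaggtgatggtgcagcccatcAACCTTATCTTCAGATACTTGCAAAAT
Junction of exons 1 and 2, annotated isoform: atggtgcagcccatcAACCTTATCTTCAGA
Junction of the 3-exon isoform: ggccagggccaaaagGGCTTTGATGAGTAC

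The new isoforms of Snrpe were highest in 4-cell embryos. The 4-exon isoform was at 2.68 and 0 TPM in oocytes, 4.02 and 1.61 TPM at the 1-cell stage and 0.941 and 9.84 TPM at the 2-cell stage. It was at 72.7 and 50.4 TPM at the 4-cell stage, 33.3 and 10.7 TPM at the 8-cell stage and 2.41 and 2.30 TPM in blastocysts. Both 4-cell libraries were above every other library, and both 8-cell libraries were above those of the remaining stages. It made up 5.64% and 4.56% of Snrpe at the 4-cell stage and 2.25% and 1.22% at the 8-cell stage. In sperm it was listed at 0 and 3.62 TPM, the latter being 10.4% of a low Snrpe level (34.8 TPM) and the highest share of any library. The 3-exon isoform was listed at 0 in both 1-cell libraries, at 8.49 and 4.49 TPM at the 4-cell stage, at 2.88 and 0.445 TPM at the 8-cell stage and at no more than 1.32 TPM elsewhere.

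**Figure D3:**
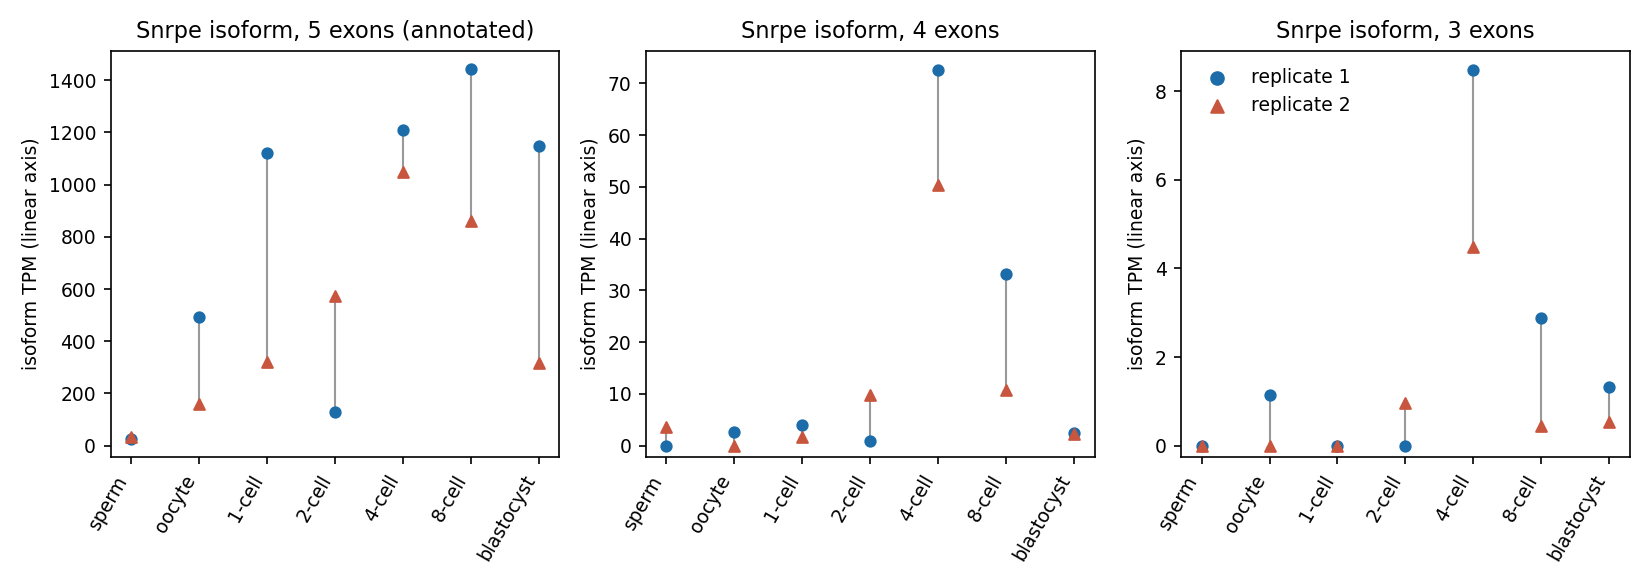
TPM (linear axis, of its own range in each panel) of the 3 merged isoforms of Snrpe in each short-read library, with the replicates of a stage as a circle and a triangle. In 4-cell embryos the 4-exon isoform lay at 50.4 and 72.7 TPM, no other library passed 33.3 TPM, and the annotated isoform remained the main one in every library.

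From the 1-cell to the 4-cell stage the 4-exon isoform rose by 4.09 (log2 scale, SE 0.94, limma adjusted p = 0.0038 over 20250 isoforms tested) and the 3-exon isoform by 2.85 (SE 0.62, limma adjusted p = 0.0030). The change of the annotated isoform was 0.91 (limma adjusted p = 0.48). In all 4 of the 13 Sm transcripts were called higher, the others being those of Snrpb and Snrpd2, where 35.5% of all isoforms were. No fold is given for the 3-exon isoform, since the 1-cell libraries list it at 0, and its log2 change was 5.97 with a pseudocount of 0.1. The difference between the isoforms' changes was not tested. When each stage was quantified on its own long-read annotation, only the 4-cell and 8-cell annotations held a new isoform of Snrpe, 1 each. The new isoform made up 4.54% and 4.25% of the gene at the 4-cell stage and 0.547% and 0.351% at the 8-cell stage. No single long-read pool held both new isoforms, so these shares need not be of the same isoform.

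Snrpf had its annotated transcript (chr10:93583385-93589697, minus strand) and an isoform with another first exon upstream (chr10:93583385-93594144). The latter was at 21.3 and 3.83 TPM in sperm, or 30.9% and 0.519% of Snrpf, and made up at most 1.85% in the other libraries. Only sperm replicate 1 stood apart, and among the long-read pools only sperm held this isoform. Snrpg had 2 annotated transcripts (from chr6:86371482-86378904 and chr6:86371547-86378904, plus strand) that differ in the first exon, and the second made up 25.6% in sperm replicate 2 and at most 2.16% in the other libraries. Snrpd1 had 2 annotated transcripts and a 2-exon transcript farther downstream within the bounds of the gene in GENCODE vM21. The merged annotation gives this 2-exon transcript a locus of its own, but its intron is annotated for Snrpd1. The latter was at 3.38 and 7.42 TPM at the 1-cell stage, or 3.01% and 9.70% of Snrpd1, and at no more than 0.272 TPM in 8-cell embryos and blastocysts.

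Sperm and oocytes were compared in a fit of all 14 libraries (14397 genes). Snrpb was at 75.4 and 44.9 TPM in sperm and higher than in oocytes by 4.46 (log2 scale, SE 0.71, limma adjusted p = 0.00015). Snrpd2, at 53.9 and 28.7 TPM in sperm, was higher by 3.01 (SE 0.92, limma adjusted p = 0.013). Snrpg, at 86.0 and 45.8 TPM in sperm, was lower (-3.67, SE 0.87, limma adjusted p = 0.0028). Snrpe, at 24.0 and 34.8 TPM, was also lower (-3.24, SE 1.03, limma adjusted p = 0.016), as was Snrpd3, at 12.7 and 2.84 TPM (-2.59, SE 1.02, limma adjusted p = 0.044). Snrpd1, at 21.1 and 42.6 TPM, changed by -1.83 (limma adjusted p = 0.078), and Snrpf, at 68.9 and 738 TPM, by -1.99 (limma adjusted p = 0.18). In all 2 of 7 were called higher and 3 lower, where 35.5% of all genes were higher and 15.5% lower. The Snrpf libraries of sperm and oocytes overlapped.

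Only Snrpb and Snrpg were called in every alternative. Snrpd2 was not called without sperm replicate 1 (limma adjusted p = 0.086) or oocyte replicate 2 (0.058), and Snrpd3 was not called without sperm replicate 2 (0.30) or oocyte replicate 1 (0.23). Snrpe was not called without sperm replicate 1 (limma adjusted p = 0.095), sperm replicate 2 (0.058) or oocyte replicate 1 (0.13), and without sperm replicate 2 Snrpf was called lower (-3.69, adjusted p = 0.043). All 4 leukocyte markers, Ptprc, Cd52, Lyz2 and Tyrobp, had a merged transcript. They summed to 10410 TPM in sperm replicate 1, to 1936 TPM in sperm replicate 2 and to no more than 22.9 TPM elsewhere. Their part in the sperm values of the Sm genes was not tested. Quantile normalisation moved the median of all genes from 0.91 to 0.041 and the share of calls that were higher from 69.6% to 49.9%. The Sm genes were then called higher for 1 and lower for 4, since Snrpd2 (2.04, limma adjusted p = 0.077) lost its call and Snrpd1 (-2.17, limma adjusted p = 0.031) gained one. With stage weights Snrpd2 (limma adjusted p = 0.055), Snrpd3 (0.14) and Snrpe (0.067) were not called, and with the 4 libraries alone Snrpd3 (0.10) and Snrpe (0.054) were not.

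The study set the level of Snrpd3 beside the number of alternative splicing (AS) events at each stage. Events were counted anew from the long-read annotation of each stage, over skipped and mutually exclusive exons, alternative splice sites, retained introns and alternative first and last exons. There were 946 events in oocytes, 1102 at the 1-cell stage, 993 at the 2-cell stage, 1279 at the 4-cell stage, 1227 at the 8-cell stage and 848 in blastocysts. Over these 6 stages r with the mean log2 level was 0.80 for Snrpd3 (Spearman's rho 0.71). It was 0.86 for Snrpd1 (rho 0.77), 0.80 for Snrpg (rho 0.77) and 0.74 for Snrpe (rho 0.60), but 0.29 for Snrpb, 0.33 for Snrpd2 and 0.24 for Snrpf. For Snrpd3 it was 0.34 with events per 1000 multi-exon transcripts, and 0.16 over the 4 stages left without the 4-cell and 8-cell stages, so the relation rests on those stages. The points share libraries and have 1 long-read pool each, and 4 of the genes gave like values, so this is a description.

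**Figure D4:**
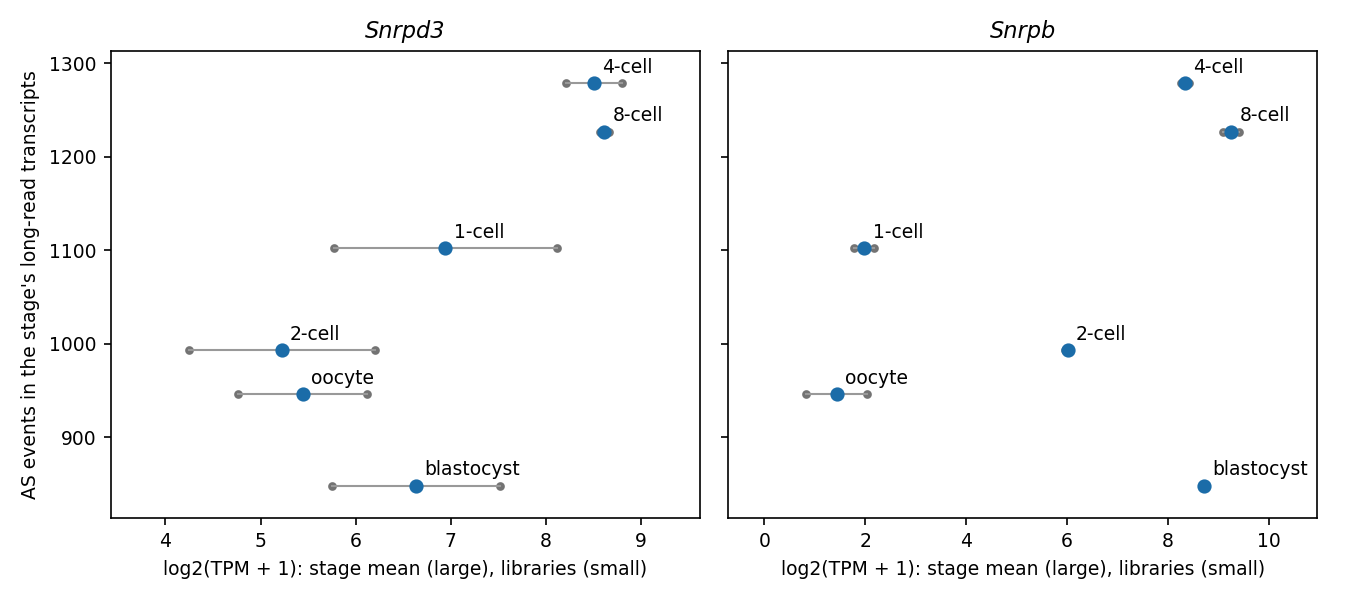
Number of AS events in the long-read annotation of each of 6 stages (oocyte to blastocyst) against log2(TPM + 1) of Snrpd3 and Snrpb, with the stage mean as a large point and its libraries as small ones. The 4-cell (1279 events) and 8-cell (1227 events) stages lay at the upper right for Snrpd3 (r = 0.80), whereas for Snrpb (r = 0.29) the blastocyst (848 events) combined a high level with the fewest events.

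Of the 17 factors tested that assemble the ring, modify it or carry it to the nucleus, 9 rose and 2 fell from the 1-cell to the 2-cell stage, and 11 rose and 3 fell from the 1-cell to the 4-cell stage. Over all genes 25.3% were higher and 4.57% lower at the first of these steps, and 36.2% and 14.5% at the second. The median change of the factors was 2.84 and 3.55, against 0.84 and 1.02 over all genes. Under quantile normalisation, an alternative chosen after seeing the data for these lists, 4 rose and 3 fell from the 1-cell to the 2-cell stage and 10 rose and 3 fell from the 1-cell to the 4-cell stage. Wdr77, a subunit of the methylosome that methylates SmB, SmD1 and SmD3, was at 0.182 and 0.263 TPM at the 1-cell stage and 25.8 and 98.8 TPM at the 2-cell stage (5.40, limma adjusted p = 0.00042). Gemin5, which recognises snRNAs for the SMN complex, rose by 4.56 (limma adjusted p = 0.0012), and Tgs1, which trimethylates the snRNA cap, by 4.02 (limma adjusted p = 0.00096). Those that fell were Riok1, an adaptor of the methylosome (-4.40, limma adjusted p = 0.0016), and Smn1, the SMN protein itself (-2.29, limma adjusted p = 0.0499, just inside the threshold). At the other steps from oocyte to blastocyst 1 factor was called, Gemin7, which rose from oocyte to 1-cell embryo by 3.23 (limma adjusted p = 0.036). Under quantile normalisation no factor was called at that step and 1 was called higher from the 2-cell to the 4-cell stage.

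Among proteins specific to single snRNPs, from the 1-cell to the 2-cell stage 1 of 3 U1 proteins rose, 0 of 2 U2 proteins did, and 1 of 14 U5 and tri-snRNP proteins rose and 1 fell. Snrpc, which encodes the C protein of the U1 snRNP, rose by 4.97 (limma adjusted p = 0.00066), Prpf4 of the tri-snRNP rose by 3.29 (limma adjusted p = 0.0056), and Prpf6, its bridging protein, fell by 2.81 on the log2 scale (limma adjusted p = 0.016). Of 7 proteins of the minor U11/U12 snRNP 3 rose, among them Snrnp35 (4.45, limma adjusted p = 0.00056). Of 13 LSm proteins, relatives of the Sm proteins of which some bind U6 snRNA or messenger RNA, 3 rose. From the 1-cell to the 4-cell stage 2 of 3 U1, 1 of 2 U2, 7 of 14 U5 and tri-snRNP, 4 of 7 U11/U12 and 6 of 13 LSm proteins rose, and 1 LSm protein, Lsm14a, fell (-3.23, limma adjusted p = 0.0049). The shares of all genes given above for these steps (25.3% and 36.2% higher) are near those of several of these lists, such as the LSm proteins. Under quantile normalisation, from the 1-cell to the 2-cell stage, 1 of 13 LSm proteins rose, 1 of 2 U2 proteins fell, and 1 of 14 U5 and tri-snRNP proteins rose and 2 fell. From the 1-cell to the 4-cell stage 4 of 14 U5 and tri-snRNP proteins then rose and 1 fell, 3 of 7 U11/U12 proteins rose, and 5 of 13 LSm proteins rose and 2 fell. From the 2-cell to the 4-cell stage Lsm5 alone among these lists was called (3.26, limma adjusted p = 0.031).

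Snrpn, which encodes SmN, a paralog of SmB made from an imprinted locus, was at 11.5 and 46.3 TPM in oocytes, 16.7 and 12.7 TPM at the 1-cell stage and 18.1 and 107.5 TPM at the 2-cell stage. It was at 175 and 224 TPM at the 4-cell stage, 416 and 390.1 TPM at the 8-cell stage and 780.1 and 96.1 TPM in blastocysts. From the 1-cell to the 4-cell stage it rose by 3.67 (SE 1.06, limma adjusted p = 0.012). In each of the oocyte and 1-cell libraries Snrpn was above Snrpb, and in the 4-cell and 8-cell libraries it was below.

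Processed copies of the Sm genes could add reads to them. In GENCODE vM21, 18 processed pseudogenes matched an Sm transcript with at least 85% identity over at least 150 bases, 5 of Snrpg, 4 each of Snrpe and Snrpf, 2 each of Snrpb and Snrpd2, 1 of Snrpd1 and 0 of Snrpd3. None of them had a merged transcript, so TPM could not be assigned to them. Identity ran from 85.1% to 100%, the latter for Gm8186 over 231 bases of Snrpg. Gm10120 matched Snrpd2 at 98.9% over 357 bases, and Snrpert matched Snrpe at 98.9% over 279 bases. The closest copy of Snrpb had 87.7%. Whether any reads of these copies were counted for the Sm genes was not tested. Ccdc38 overlaps Snrpf by 504 bases on the opposite strand, and the amplified cDNA does not mark strand. Its highest level was 9.41 TPM, in sperm replicate 1, where Snrpf was at 68.9 TPM.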

How the data were processed

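The authors aligned long reads with GMAP, merged the transcripts of the 7 stages with Cuffmerge and quantified short reads with salmon. Per the labels the build is mm10, with Cufflinks, GSNAP, STAR and Salmon named. The deposited files hold TPM per transcript and library, on the merged annotation and on that of each stage, and, in other files, the exon coordinates of those annotations. No counts were used, so the authors' count test could not be repeated. Here transcripts were assigned to genes of GENCODE vM21, TPM was summed per gene, and genes with at least 1 TPM in at least 2 libraries were tested with limma 3.58.1 (R 4.3.3; eBayes with trend) on log2(TPM + 1), with Benjamini-Hochberg adjustment over all genes. The limma fit was tested on simulated data with a single spread per gene over all stages, which does not cover the wider 2-cell spread. Tables were handled with Python 3.11.15 and pandas 2.3.3, and copies were sought with blastn 2.17.0. Groups and replicate numbers came from the sample labels. For the 8-cell libraries the deposited files are numbered the other way round, and the sample titles were followed. Replicate numbers did not pair the samples (correlations of deviations from -0.49 to 0.44). With 2 libraries a stage no exact permutation test can reach 0.05. All 7 Sm genes and their transcripts were named. Other genes were named from 6 lists (U1, U2, U5 and tri-snRNP, U11/U12, LSm, assembly factors) and the paralog Snrpn, from among those called most often. Not every such gene was described: Gemin2, Ddx20, Gemin4, Coil, Lsm4 and Lsm12, for example, were also called in 3 comparisons each. Smn1, Prpf6, Lsm5 and Lsm14a were named after their values were seen. The Sm genes and lists were chosen with earlier results of these data known. Alternatives were another pseudocount, other filters, quantile normalisation, stage weights, a replicate block, fewer libraries and own-stage annotations. A gene named by the rule of likeness and some sequences are not reported here. Genome sequence beyond the annotated transcripts was not used here.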

Additional observations from a re-analysis of the deposited data

How the results depend on the processing

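Of the alternative values computed, 717 kept their direction and side of the threshold or lay within the replicate spread, 22 were reversed, all of changes that were not called, 16 lost a call, 8 gained one, and 27 values or counts with no test of their own moved. The cause was not tested for any of these changes. Under quantile normalisation Snrpb from oocyte to 1-cell was -0.044, Snrpd1 from the 1-cell to the 2-cell stage -0.34 and Snrpg from the 4-cell to the 8-cell stage -0.15, and 2 Sm genes were called from the 2-cell to the 4-cell stage. With only the 4 libraries of both stages, 0 Sm genes were called from the 1-cell to the 2-cell stage and 3 between sperm and oocyte. With libraries weighted by stage the counts were 4 from the 1-cell to the 4-cell stage and 2 between sperm and oocyte. For the relation of Snrpd3 to AS events r was 0.34 per 1000 multi-exon transcripts and 0.16 without the 2 stages farthest from the median. Own-stage annotations hold 5 of the 7 genes in oocytes (without Snrpb and Snrpd2) and 5 in 1-cell embryos (without Snrpb and Snrpg). They hold 6 in 4-cell embryos (without Snrpd2), 7 in 8-cell embryos and 5 in blastocysts (without Snrpd2 and Snrpf). They give Snrpf 4128 and 2528 TPM in 4-cell embryos. On them the mean ratio of highest to lowest was 34.6 in oocytes, 211 in 1-cell, 11.9 in 4-cell and 5.215 in 8-cell embryos. The blastocyst libraries had ratios of 7.47 and 8.03. The mean share of new Snrpe isoforms was 4.40% at the 4-cell and 0.449% at the 8-cell stage. Each of these annotations held only 1 new isoform, so the 2 shares need not be of the same one.

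Leaving out single libraries gave, from oocyte to 1-cell, -0.060 to 1.16 for Snrpb, -0.62 to 0.14 for Snrpd1, -0.29 to 1.96 for Snrpd2, -0.91 to 1.31 for Snrpf and -0.88 to 0.30 for Snrpg. From the 1-cell to the 2-cell stage it gave 1 to 2 Sm genes called, -0.68 to 0.74 for Snrpd1 and -0.49 to 0.36 for Snrpg. From the 2-cell to the 4-cell stage 0 to 1 were called. From the 4-cell to the 8-cell stage it gave -0.73 to 0.014 for Snrpd1, -0.19 to 0.41 for Snrpd3 and -0.45 to 0.31 for Snrpe. From the 8-cell stage to the blastocyst it gave -1.83 to 0.019 for Snrpe and -0.999 to 0.47 for Snrpf, and from the 1-cell to the 4-cell stage -0.18 to 0.44 for Snrpf. Between sperm and oocyte 3 to 4 were called. The samples share only a number, and with a replicate block no call for the Sm genes changed: from the 1-cell to the 2-cell stage the adjusted p by limma was 0.0021 for Snrpb and 0.0067 for Snrpd2. Alternatives for the isoform fit were chosen after seeing the data, and in them 3 to 6 of the 13 Sm transcripts were called higher from the 1-cell to the 4-cell stage. Depth is not given by TPM, so values near 0 carry no counting interval.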
